A study of Mus musculus with 6 samples.

Results

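The nuclear genes for the mitochondrial respiratory chain and the ATP synthase were followed in mammary epithelial organoids with and without Wwox, the WW domain-containing oxidoreductase. A probe set of the array was taken as a member where the platform annotation gave it exactly 1 gene symbol and that symbol began with Nduf followed by a, b, c, s or v, with Uqcr, with Cox4 to Cox8 or with Atp5, or was Sdha, Sdhb, Sdhc or Sdhd. This gave 179 probe sets of 90 genes, of the 18193 genes that could be named. For each gene the probe set with the highest mean over the 6 arrays was used, called the chosen probe set here. The 90 genes hold 34 subunits of complex I, 8 complex I assembly factors, 4 subunits of complex II, 8 of complex III, 17 genes of complex IV, Ndufa4 with its relative Ndufa4l2, and 17 genes of the ATP synthase.

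The organoids, fragments of mammary duct and alveolus freed by digestion of the gland, came from 3 WT mice (BK5-cre -; WWOX flox/flox; arrays WT1, WT2 and WT3) and 3 KO mice (BK5-cre +; WWOX flox/flox; arrays KO5, KO6 and KO7), with 1 Affymetrix array per mouse. All 6 mice were 8 weeks old, of mixed (129/J; C57BL/6) background, and carried floxed Wwox. In KO mice the bovine keratin 5 promoter drove Cre in epithelial precursor cells, whereas WT mice had no Cre. What Cre alone does and what loss of Wwox does thus cannot be told apart here. In bulk RNA, fewer cells of a type and less RNA per cell cannot be told apart either.

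Wwox itself was at 7.77, 7.63 and 7.72 in WT and at 6.23, 5.87 and 5.96 in KO on its brightest probe set, on the log2 scale of the deposited RMA values, which is used throughout (log2 change -1.69, limma adjusted p = 0.0228). The luminal keratin gene Krt8 lay between 14.40 and 14.71 on all arrays. Epcam, of epithelial cells, lay between 13.75 and 14.06, and Krt5 of the basal layer between 8.81 and 9.13. Of 8 luminal markers 6 had a higher mean in KO. For 3 of them, Krt8, Krt19 and Pgr, all KO arrays lay above all WT arrays (7.2% of all genes). Pgr differed by 0.61 and Krt19 by 0.32, while Elf5 differed by -0.63. Of 7 basal and myoepithelial markers 4 were higher in KO, and for 0 of them the groups were apart. The arrays differed in RNA quality. The signal of the 3' end minus that of the 5' end, which grows as RNA is degraded or incompletely copied, was averaged over the control transcripts of Gapdh and β-actin and is called the end difference here. It was 0.96 in WT1, 2.13 in WT2 and 1.80 in WT3, and lay between 0.54 and 0.60 in KO, so that all WT arrays were above all KO arrays (1.63 ± 0.60 against 0.56 ± 0.03, SD, n = 3 per group; two-sided exact permutation p = 0.1, which is as low as 3 against 3 can go).

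The respiratory chain passes electrons from NADH, through complex I, and from succinate, through complex II, to complex III, cytochrome c and complex IV, where oxygen is reduced, and the protons pumped on the way drive the ATP synthase. Most of its subunits are encoded in the nucleus and imported, while a few core subunits are encoded and translated inside the mitochondrion. Complex I is the largest of the complexes, built from separate modules with the help of assembly factors that are absent from the finished enzyme.

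None of the 90 genes was called on its chosen probe set, where a call needed 2-fold or more and an unadjusted p under 0.01 (0 of 90, against 0.978% of all 18193 genes). By limma 0 of the 90 had an adjusted p under 0.05, and the smallest adjusted p was 0.121. The differences were small and mostly in 1 direction. In KO 78 members had a lower mean and 12 a higher one, whereas 61.2% of all genes were lower, and the median log2 change was -0.17 over the members and -0.06 over all genes. At an unadjusted p under 0.05, 20 members were lower in KO (13% of all genes were) and 3 were higher (6.17%). All KO arrays lay below all WT arrays for 22 members (16.1% of all genes) and above them for 3 (7.2%). Of the members, 85 had a mean of at least 6 over the arrays. Among all genes that bright 17.3% were lower and 9.02% higher at an unadjusted p under 0.05, and 19.2% had all KO arrays below all WT arrays. The 82 members other than the assembly factors were near these shares, with 14 lower at that limit (17.1%) and 16 with all KO arrays below (19.5%). The direction depended on the scaling. With the arrays centred on the ribosomal protein genes, which moved the median of all genes from -0.06 to 0.10, 47 of 90 members were lower (33.9% of all genes). At an unadjusted p under 0.05, 4 were lower (4.9% of all genes) and 5 higher (14%), while all 8 complex I assembly factors still had a lower mean. The largest difference in size was that of the assembly factor Ndufaf4, at -0.72.

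**Figure D1:**
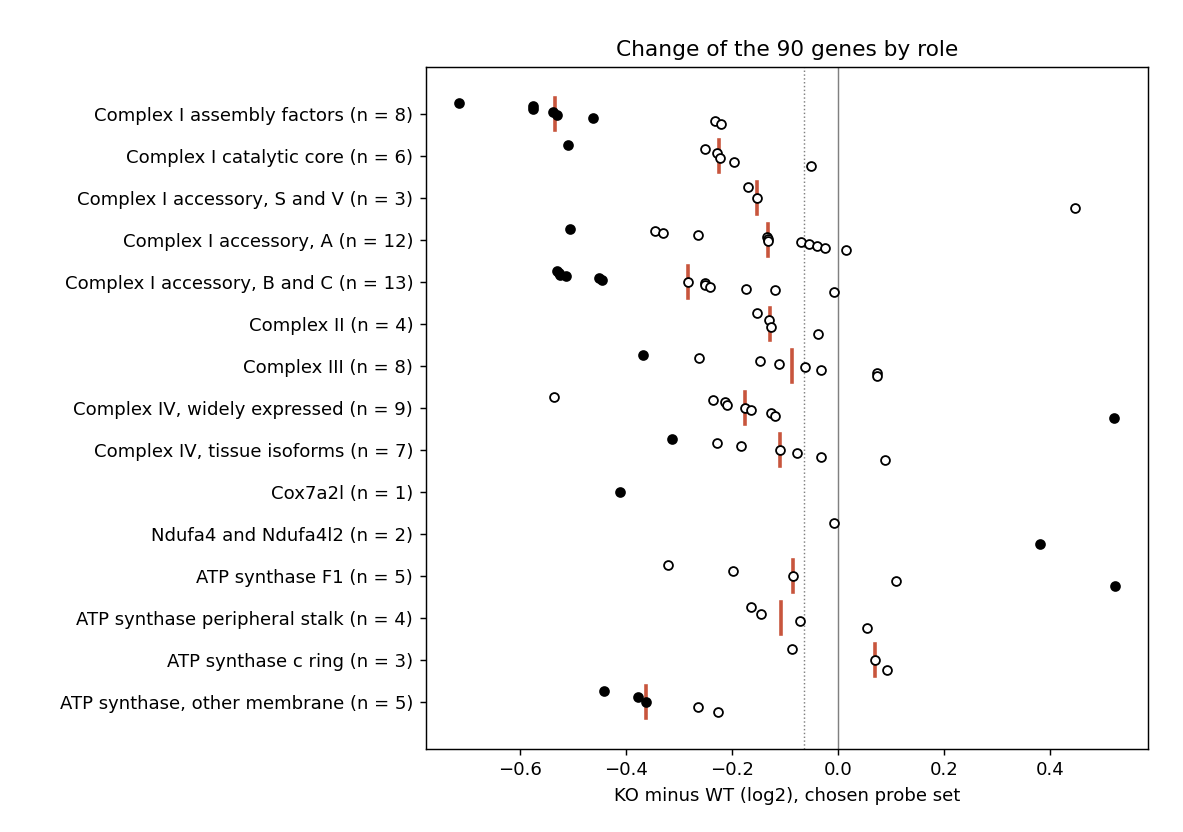
KO minus WT on the log2 scale for the chosen probe set of each of the 90 genes, by role; filled points have an unadjusted p under 0.05 (limma), red bars are group medians for groups of 3 or more, the solid line is 0 and the dotted line the median of all genes, -0.06. The assembly factors of complex I lie to the left, with a median of -0.53, and Atp5b and Cox8a lie to the right, both at 0.52.

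The assembly factors of complex I, Ndufaf1 to Ndufaf8, were the group with the lowest median, -0.53. All 8 had a lower mean in KO, 6 of them at an unadjusted p under 0.05 (17.3% of all genes with a mean of at least 6). For those 6 every KO array lay below every WT array (19.2% of such genes). In human cells NDUFAF4 works with NDUFAF3 on the module of complex I that binds ubiquinone. Ndufaf4 was at 8.69, 9.53 and 9.29 in WT and at 8.50, 8.38 and 8.48 in KO (log2 change -0.72, standard error 0.21, limma adjusted p = 0.133). The KO arrays were close together, and WT1 was the WT array nearest to them. Its other probe set, with 6.10, 6.75 and 6.74 in WT and 6.27, 5.57 and 5.71 in KO, had a like difference of -0.68, but there WT1 lay below KO5. Ndufaf1, a factor for the membrane arm, was at 7.47, 7.29 and 7.58 in WT and at 6.84, 6.93 and 7.19 in KO (log2 change -0.46, standard error 0.14, limma adjusted p = 0.137). Here WT1 was not the lowest WT array.

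Ndufaf6, a factor of the early steps, was at 7.76, 8.07 and 8.39 in WT and at 7.47, 7.59 and 7.54 in KO (log2 change -0.54, limma adjusted p = 0.147). Ndufaf8, the partner of the hydroxylase Ndufaf5, was at 9.37, 10.06 and 10.01 in WT and at 9.19, 9.20 and 9.33 in KO (log2 change -0.57, limma adjusted p = 0.168). Its groups were apart by a narrow margin, WT1 against KO7, and its second probe set, which is meant to be specific to this gene, had a mean of 7.72 in WT and 7.92 in KO. Ndufaf7, a methyltransferase of a complex I core subunit, and Ndufaf5 differed by -0.57 and -0.53. Ndufaf2, at -0.23, and Ndufaf3, at -0.22, did not pass the looser limit, and their groups overlapped. The 95% interval of Ndufaf2 ran from -0.88 to 0.42.

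**Figure D2:**
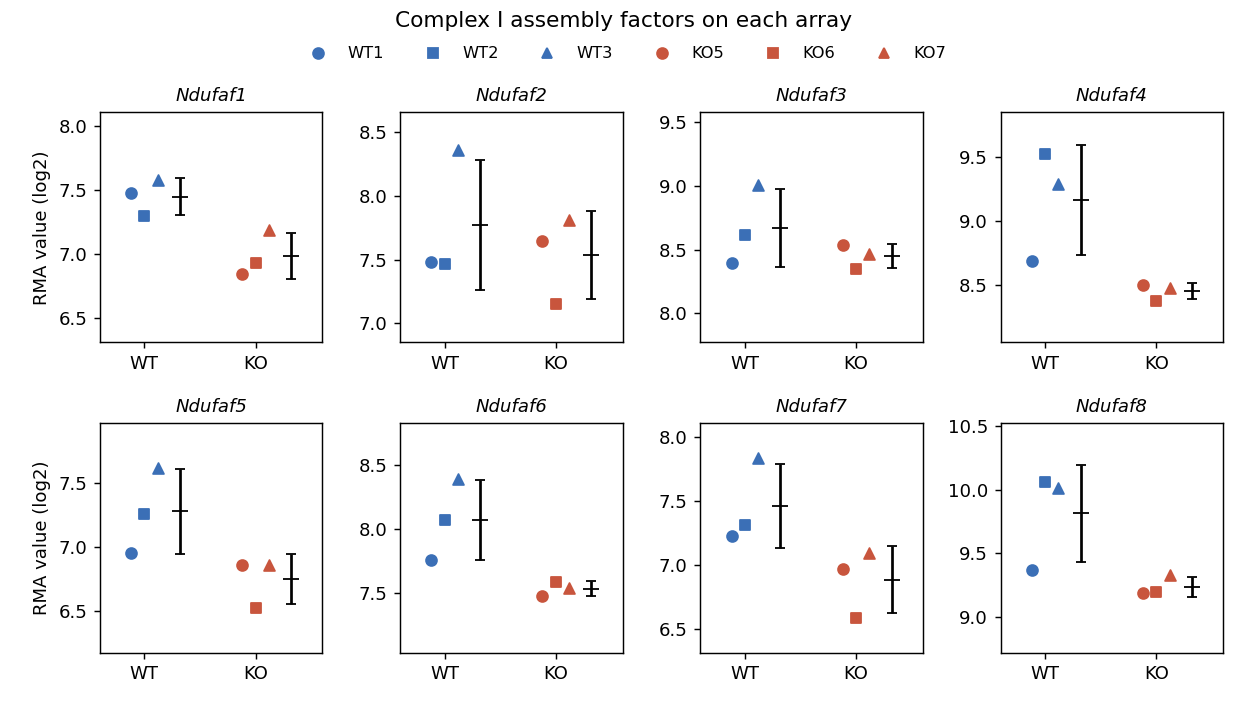
RMA values (log2) of the 8 complex I assembly factors on each of the 6 arrays; each point is 1 mouse, and the bars are means with SD (n = 3). For Ndufaf4 the KO arrays lie between 8.38 and 8.50 and the WT arrays between 8.69 and 9.53, while for Ndufaf2 and Ndufaf3 the groups overlap.

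The 250 bases before the start are shown for 3 of these assembly factors and for Tfam, the mitochondrial transcription factor described further on. These genes were lower in KO with no overlap and hold a motif that was searched for. The members Ndufb7, Uqcrh, Atp5l and Atp5e, with the ETS motif, also meet both conditions and are not shown. The sequences are those of RefSeq (GRCm38.p6), 5′ to 3′ on the strand of the gene, and capitals mark the motif, either the NRF1 motif GCGCATGCGC (a half-site and its reverse complement) or the ETS motif CCGGAAG. They lie at chr4:24897833-24898082 (plus strand, Ndufaf4), chr2:119662835-119663084 (minus strand, Ndufaf1), chr11:120098684-120098933 (plus strand, Ndufaf8) and chr10:71238045-71238294 (minus strand, Tfam).
Ndufaf4: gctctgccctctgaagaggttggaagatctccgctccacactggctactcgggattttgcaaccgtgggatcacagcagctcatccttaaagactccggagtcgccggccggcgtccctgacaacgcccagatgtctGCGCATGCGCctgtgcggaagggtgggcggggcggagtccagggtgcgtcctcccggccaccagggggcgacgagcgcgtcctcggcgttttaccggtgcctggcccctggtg
Ndufaf1: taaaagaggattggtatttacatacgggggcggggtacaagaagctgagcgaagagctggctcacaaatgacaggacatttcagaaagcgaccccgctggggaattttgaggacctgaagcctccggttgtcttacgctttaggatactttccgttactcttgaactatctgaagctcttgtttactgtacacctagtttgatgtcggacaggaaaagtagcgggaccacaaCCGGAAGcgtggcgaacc
Ndufaf8: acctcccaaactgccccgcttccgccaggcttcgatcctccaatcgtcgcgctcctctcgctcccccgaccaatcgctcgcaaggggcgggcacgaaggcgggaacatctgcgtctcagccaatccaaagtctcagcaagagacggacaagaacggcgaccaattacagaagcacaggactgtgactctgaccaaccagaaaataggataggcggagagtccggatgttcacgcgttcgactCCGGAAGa
Tfam: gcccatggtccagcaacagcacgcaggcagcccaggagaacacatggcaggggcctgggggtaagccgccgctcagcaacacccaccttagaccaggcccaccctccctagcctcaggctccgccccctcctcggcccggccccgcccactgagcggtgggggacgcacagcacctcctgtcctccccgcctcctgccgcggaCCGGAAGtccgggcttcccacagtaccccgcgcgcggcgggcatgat

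In Ndufaf4 the NRF1 motif began 113 bases before the start, and the ETS motif began 18 bases before it in Ndufaf1, 8 in Ndufaf8 and 47 in Tfam. The NRF1 protein and the ETS factor GABP are known regulators of nuclear genes for mitochondrial proteins. Of the 74 members with an entry in the RefSeq promoter table, 4 held the NRF1 motif on either strand (5.41%, against 0.781% of 27025 genes in the table) and 13 held the ETS motif (17.6%, against 7.05%). The YY1 motif AAGATGGC was in 0 of the 74 (1.59% of all). The 16 members with any of the motifs had a median log2 change of -0.25, with 15 of them lower in KO, and the 58 with none had -0.17, with 49 lower, a difference that was not tested. A match of letters is a description of the sequence, and binding was not measured.

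Complex I had 34 subunits on the arrays, of which 32 had a lower mean in KO, with a median of -0.23. That was 94.1%, against 58.9% of all genes with a mean of at least 6. At an unadjusted p under 0.05, 8 were lower (23.5%, against 17.3% of such genes). All KO arrays lay below all WT arrays for 6 (17.6%, against 19.2%). The 13 accessory subunits of the B and C families, which lie in the membrane arm, were all lower, with a median of -0.28. The groups of 3 of them were apart (23.1%), and 6 passed the looser limit (46.2%). Those 6 were Ndufb1, Ndufb3, Ndufb7, Ndufb8, Ndufb9 and Ndufb10, with log2 changes between -0.53 and -0.45. Ndufb1 was at 7.08, 7.09 and 7.59 in WT and at 6.79, 6.85 and 6.79 in KO (log2 change -0.45, standard error 0.16, limma adjusted p = 0.187). Ndufb3 was at 10.46, 10.95 and 11.11 in WT and at 10.32, 10.15 and 10.46 in KO (log2 change -0.52, limma adjusted p = 0.187). The groups of Ndufb1 were apart, and those of Ndufb3 met between WT1 and KO7. Ndufb4 was dim, with a mean of 4.05. Its other probe sets also name the copies Ndufb4b and Ndufb4c and were not used.

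The 6 nuclear subunits of the catalytic core, which carry the flavin and the iron-sulfur clusters, were also all lower, and only Ndufs7 among them passed the looser limit. Ndufs7, which binds the last iron-sulfur cluster before ubiquinone, was at 10.75, 11.19 and 11.31 in WT and at 10.55, 10.51 and 10.66 in KO (log2 change -0.51, standard error 0.16, limma adjusted p = 0.152). Its groups did not overlap, while its second probe set differed by -0.08. Ndufs1 and Ndufv1, both on the electron path at the NADH end, differed by -0.23 and -0.22, with 95% intervals from -0.57 to 0.12 and from -0.56 to 0.12. Of the 12 accessory subunits of the A family 11 were lower, with a median of -0.13. Ndufa5, at -0.51, was the only one of them to pass the looser limit. Only Ndufs5 and Ndufa10 had a higher mean in KO. Ndufs5 differed by 0.45, with a 95% interval from -0.18 to 1.07, and a probe set that names its pseudogene as well was not used.

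Complex II, which is also an enzyme of the citric acid cycle and has no subunit from the mitochondrial genome, had small differences. Its 4 genes had log2 changes between -0.15 and -0.04, and none passed the looser limit. Sdha, the flavoprotein, was at 10.81, 10.77 and 10.69 in WT and at 10.74, 10.56 and 10.85 in KO, and the interval of its difference ran from -0.31 to 0.23. Sdhb, the iron-sulfur protein, was at 10.85, 10.73 and 11.11 in WT and at 10.74, 10.80 and 10.69 in KO, with a difference of -0.15. The groups of both genes overlapped.

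In complex III 6 of 8 genes were lower (75%, against 61.2% of all genes), with a median of -0.09, close to that of all genes. Cyc1, of the complex III subunit cytochrome c1, is outside the name rule and was higher in KO by 0.17. The Rieske iron-sulfur protein gene Uqcrfs1 was at 10.87, 10.43 and 10.85 in WT and at 10.70, 10.79 and 10.89 in KO (log2 change 0.07, 95% interval from -0.27 to 0.42). Only Uqcrh, the hinge protein that contacts cytochrome c1, passed the looser limit, with 12.96, 12.98 and 13.38 in WT and 12.72, 12.67 and 12.83 in KO (log2 change -0.37, limma adjusted p = 0.224). Its groups were apart, with WT3 well above the other arrays.

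Among the 17 genes of complex IV 15 were lower (88.2%, against 61.2% of all genes), with a median of -0.18. Cox7a2l had the smallest p of all members. Its protein joins complexes III and IV into supercomplexes. It was at 12.38, 12.54 and 12.65 in WT and at 12.06, 12.14 and 12.13 in KO (log2 change -0.41, standard error 0.11, limma adjusted p = 0.121), and a second probe set differed by -0.48, both with no overlap of the groups. The remaining probe set, at -0.15, had overlapping groups. Cox8a went the other way, with 12.01, 11.28 and 11.77 in WT and 12.24, 12.15 and 12.23 in KO (log2 change 0.52, standard error 0.19, limma adjusted p = 0.192). WT1 was the WT array nearest to KO, and a second bright probe set of Cox8a gave 0.52 as well.

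The 7 tissue isoforms of complex IV had log2 changes between -0.31 and 0.09. Cox4i2 of lung, Cox6a2, Cox7a1 and Cox8b of heart and skeletal muscle, and Cox6b2, Cox7b2 and Cox8c of testis had means between 3.19 and 7.62 over the arrays, 4 of the 7 below 6. Only Cox6a2 passed the looser limit, at 6.35, 6.50 and 6.30 in WT and 5.97, 6.14 and 6.09 in KO, with a log2 change of -0.31. Of its relatives expressed in most tissues, Cox6a1 differed by -0.13, Cox6b1 by -0.24, Cox7a2 by -0.18 and Cox4i1 by -0.21, and none of these passed. Cox7a1 varied widely within the groups, at 4.94, 5.89 and 6.30 in WT and 5.29, 5.15 and 5.99 in KO. Ndufa4, once counted with complex I and now with complex IV, differed by -0.01. Its relative Ndufa4l2, which is induced by hypoxia, was at 6.23, 6.48 and 6.20 in WT and at 6.56, 6.82 and 6.67 in KO (log2 change 0.38, limma adjusted p = 0.176).

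Of the 17 ATP synthase genes 12 were lower (70.6%, against 61.2% of all genes). The 5 genes of its membrane part other than the c ring were all lower, with a median of -0.36, and 3 of them passed the looser limit with the groups apart. These were Atp5mpl, a small proteolipid, at 11.94, 12.16 and 12.33 in WT and 11.56, 11.69 and 11.86 in KO, Atp5md, at 10.87, 11.09 and 11.22 against 10.72, 10.69 and 10.69, and Atp5l, subunit g, which helps the enzyme form dimers, at 12.32, 12.41 and 12.80 against 12.19, 12.10 and 12.12. Their log2 changes were -0.44, -0.36 and -0.38. The 3 genes of the c ring, the rotor that protons turn, lay between -0.09 and 0.09. In the F1 part, which makes ATP, the catalytic subunit gene Atp5b was higher, with 12.91, 12.14 and 12.54 in WT and 13.14, 12.95 and 13.06 in KO (log2 change 0.52, standard error 0.20, limma adjusted p = 0.208). Its partner Atp5a1 differed by -0.08 on the chosen probe set, with all arrays between 12.45 and 12.57. The difference between the membrane genes and the others was not tested.

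The members moved together from array to array, and WT3 stood apart. It was the highest of the 6 arrays for 71 of the 90 genes (78.9%), compared with 26.8% of all genes. The median deviation of the members from their own means was -0.10 in WT1, 0.05 in WT2 and 0.37 in WT3, and -0.07, -0.18 and -0.03 in KO5, KO6 and KO7, so that WT1 lay among the KO arrays. Over all genes the same medians stayed between -0.06 and 0.04. Complex I subunits were at -0.12, 0.06 and 0.41 in WT and at -0.09, -0.20 and -0.05 in KO. The assembly factors of complex I, at -0.09, 0.19 and 0.54 in WT and -0.25, -0.38 and -0.12 in KO, had the groups apart by a narrow margin, WT1 against KO7. So did the 5 genes of the membrane part of the ATP synthase, at -0.01, 0.13 and 0.44 against -0.13, -0.22 and -0.12. Without WT3 the median log2 change of the members was -0.05, level with -0.05 over all genes. Then 7 of 90 members were lower at an unadjusted p under 0.05 (11.3% of all genes). The assembly factors had a median of -0.38 without WT3, with 7 of 8 lower and 3 at the looser limit. Without WT1, in contrast, the median of the members was -0.29 and 32 were lower at that limit (16.2% of all genes).

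**Figure D3:**
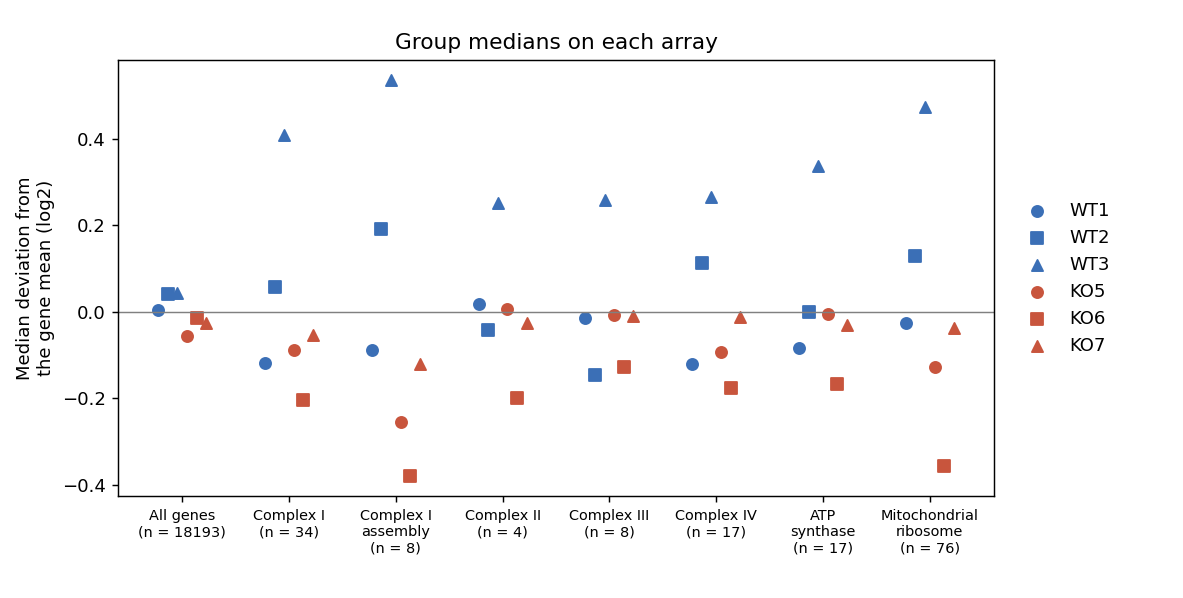
Median, over the genes of each group, of the deviation (log2) from the gene's own mean over the 6 arrays; circles, squares and triangles tell the 3 mice of a group apart, in blue for WT and red for KO. WT3 is the highest array in every group of chain genes drawn here, at 0.54 for the assembly factors. There, and for the mitochondrial ribosome, the lowest WT array, WT1, lies just above the highest KO array, KO7.

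Markers of other cells of the gland also varied between arrays of 1 group. The fat hormone gene Adipoq was at 5.67, 7.49 and 9.001 in WT and 6.84, 6.19 and 7.15 in KO, which put WT3 first as well. The log2 of the summed level of 8 white adipocyte markers was between 14.18 and 14.59 in WT, WT3 highest, and between 14.49 and 14.62 in KO, with 5 of the 8 higher in KO. The brightest marker weighs most in such a sum. In WT1, where this sum was 14.18, Fabp4 alone was at 14.02. The leukocyte gene Ptprc was at 11.29, 10.24 and 7.81 in WT and 7.16, 9.18 and 7.32 in KO. The summed level of 4 lymphocyte markers was between 8.50 and 11.49 in WT, WT1 highest and WT3 lowest, and between 8.13 and 9.67 in KO, KO6 highest, and all 4 were lower in KO. For 5 macrophage markers it was between 12.09 and 13.17 in WT and between 12.15 and 12.62 in KO, with all 5 lower in KO. In WT1, where this sum was 13.17, Cd14 alone was at 12.68. The summed level of 6 fibroblast markers was between 14.69 and 14.81 in WT and between 15.01 and 15.47 in KO, with 5 of 6 higher, and that of 5 endothelial markers between 11.44 and 11.97 in WT and between 11.98 and 12.42 in KO, with all 5 higher. The summed level of 5 brown fat markers was between 7.64 and 7.88 in WT and between 7.60 and 8.33 in KO, with all 5 higher in KO and Ucp1, which defines that fat, dim at 4.55 to 5.04. For 9 skeletal muscle markers it was between 8.97 and 9.16 in WT and between 8.88 and 9.04 in KO, with 4 of 9 lower. Ckm was dim, at 5.37 to 5.60, while Tnnc2, at -0.51, and Mb, at -0.40, passed the looser limit with the groups apart, like the muscle isoform gene Cox6a2. Acta1, at 0.30, had its groups apart the other way. The part of these cells in the differences of the chain genes was not tested.

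Probe sets of 1 gene did not always give the same difference. Several probe sets with a mean of at least 6 were present for 44 of the genes, and in 15 of these the log2 changes had both signs. Ndufa12, an accessory subunit of complex I, had the only called probe set among the 179 of the members (1.99% of all probe sets were called), at 5.75, 5.02 and 5.24 in WT and 6.92, 6.39 and 6.88 in KO (log2 change 1.40, standard error 0.22, limma adjusted p = 0.0546). Its mean was 6.03, and the chosen probe set of Ndufa12 was at 11.48, 12.14 and 12.29 in WT and 11.91, 11.90 and 11.70 in KO, a difference of -0.13, while the remaining ones both differed by -0.29. Atp5d differed by 0.11 and 0.84, Atp5a1 by -0.08, 0.19 and 0.43, and Cox6a1 by -0.13 and 0.39. Atp5c1 differed by -0.32 and 0.38, and Cox5b by values from -0.42 to 0.13. WT2 was the array with the largest end difference. For Atp5d, Atp5a1, Cox6a1, Atp5c1 and Ndufa12, WT2 was the lowest array on the probe set with the most positive difference. This did not hold for every such gene. On the like probe set of Ndufaf8 the lowest array was WT1, and on that of Cox5b it was KO6. On the probe set of Atp5a1 that differed by 0.19, WT1 was the lowest array, at 6.84, and WT2 the highest, at 8.15.

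**Figure D4:**
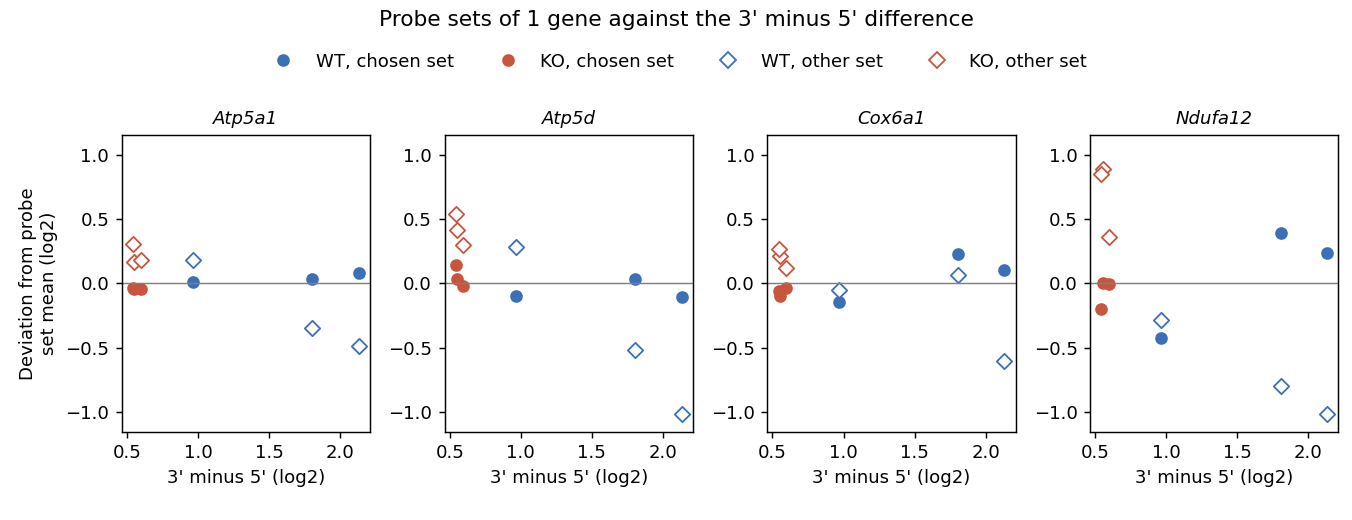
Deviation of a probe set from its own mean (log2) against the end difference, 3' minus 5' (log2), on the 6 arrays, for 4 genes; filled circles are the chosen probe set, open diamonds another probe set of the same gene, blue is WT and red KO. The diamonds of WT2, at 2.13, are the lowest in each panel, while the chosen probe sets span a narrower range. Ndufaf8 and Cox5b, whose like probe sets were lowest on WT1 and KO6, are not drawn. The probe set of Atp5a1 that differed by 0.19, on which WT2 was the highest array, is not drawn either.

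RNA quality moved with the groups. With the end difference of each array as a covariate, the median log2 change of the members was 0.01 and that of all genes -0.03. In KO 43 of 90 members were lower (54.8% of all genes). At an unadjusted p under 0.05, 1 member was lower (3.36% of all genes) and 2 were higher (1.8%). The assembly factors had a median of -0.10, with 5 of 8 lower and 0 at the looser limit by limma, and Ndufaf4 was at 0.04 and Ndufaf1 at -0.58. Atp5b was at -0.15, Cox8a at -0.08 and the called Ndufa12 probe set at 0.71, no longer called. Since the covariate itself keeps the groups apart, genotype and RNA quality cannot be told apart on these 6 arrays.

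Other genes for mitochondrial proteins were taken from lists of the pathway. For comparison, 61.2% of all genes were lower in KO, and at the looser limit 13% were lower and 6.17% higher. Among all genes with a mean of at least 6, 17.3% were lower and 9.02% higher at that limit. Of 76 genes of the mitochondrial ribosome, which translates the subunits encoded in the mitochondrion, 70 were lower in KO (92.1%). The looser limit was passed by 27, all lower (35.5%), and the median log2 change of the 76 was -0.35. Their median deviations lay at -0.03, 0.13 and 0.47 on the WT arrays and at -0.13, -0.36 and -0.04 on the KO arrays. One of them was called, Mrpl41, at 9.87, 10.50 and 10.81 in WT and 9.29, 8.90 and 9.21 in KO (log2 change -1.26, standard error 0.24, limma adjusted p = 0.067), and with the covariate it was at -0.58 and not called. The 54 genes of the cytosolic ribosome had a median of -0.06. At the looser limit 7 were lower (13%, against 13% of all genes) and 2 higher (3.7%, against 6.17%).

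Among 35 further assembly factors, mostly of complexes II to V, 30 were lower (85.7%, against 61.2% of all genes), with a median of -0.26. Of these 7 passed the looser limit (20%, against 13% of all genes and 17.3% of those with a mean of at least 6). Sdhaf1, which helps Sdhb receive its iron-sulfur clusters, was at 8.997, 8.94 and 8.60 in WT and 8.13, 7.80 and 7.90 in KO (log2 change -0.90, standard error 0.15, limma adjusted p = 0.0557). Here WT3 was the lowest WT array, and with the covariate the difference was -1.05. Cox11, which delivers copper to complex IV, differed by -0.83, and Atpaf1, a chaperone of the F1 part, by -0.70. Lyrm7, which escorts the Rieske protein, was higher by 0.40 on a dim probe set.

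Of 19 genes that maintain mitochondrial DNA or regulate its use, 6 were lower at the looser limit (31.6%, against 13% of all genes). At that limit 2 were higher (10.5%, against 6.17%). Tfam, which packs mitochondrial DNA and starts its transcription, was at 8.65, 8.99 and 8.98 in WT and 7.91, 7.92 and 8.16 in KO (log2 change -0.87, standard error 0.14, limma adjusted p = 0.0549). All KO arrays were below all WT arrays by a clear margin, and the difference was -0.82 without WT3 and -0.55 with the covariate. The single-strand binding protein gene Ssbp1 differed by -0.69 and the helicase gene Twnk by -0.65, whereas the polymerase gene Polg was higher by 0.48 and the coactivator gene Ppargc1a, on a dim probe set, by 0.71. The one gene of the mitochondrial genome that could be named, ND5, was at 12.54, 12.52 and 12.36 in WT and 12.76, 12.89 and 12.81 in KO (log2 change 0.35, limma adjusted p = 0.147).

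Among 23 genes of protein import into the mitochondrion 20 were lower (87%, against 61.2% of all genes). Of them 7 passed the looser limit (30.4%, against 13%). The smallest p were those of Timm8a1 (-0.58), Timm23 (-0.47) and Timm10 (-0.59), all with the groups apart. Tomm40, the channel of the outer membrane, had the largest difference in the list and the only one higher at that limit, 0.87, with overlapping groups. Among 17 genes of the citric acid cycle and pyruvate dehydrogenase 13 were lower (76.5%), 3 of them at the looser limit (17.6%). There Pdhb differed by -0.57, and Ogdh, of the oxoglutarate dehydrogenase complex, was higher by 0.75, with 9.48, 8.89 and 8.92 in WT and 9.91, 9.86 and 9.77 in KO. Among 10 genes of fission, fusion and mitophagy 9 were lower (90%), 3 at the looser limit (30%), and 1 was higher at it (10%). Mff, a receptor for the fission protein Drp1, was at -0.55, but at 0.03 on a probe set specific to it. Cyc1, of cytochrome c1 in complex III, differed by 0.17, and Cycs, of the electron carrier cytochrome c, by -0.07. Higd1a, a small protein associated with complex IV, differed by -0.63. Apart from Mrpl41, none of the genes named in these lists reached both a 2-fold change and an unadjusted p under 0.01.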

How the data were processed

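Total RNA of mammary epithelial organoids of 3 WT and 3 KO mice had been hybridised to Affymetrix mouse arrays, 1 per mouse. RMA (background correction, quantile normalization and 1 summary per probe set; its version is not given in the sources used here) made the log2 values that the authors deposited, and nothing was normalized again. The tests left 64 controls out of 45101 probe sets. Among the remaining 45037, 34945 carried 1 symbol, 932 several and 9160 none. A further 10 probe sets name a member beside another gene and were not used. KO was compared with WT on all 6 arrays in limma 3.58.1 (R 4.3.3; lmFit, eBayes), with Benjamini-Hochberg adjustment over all 45037. Calls needed an unadjusted p under 0.01 and 2-fold, the limits of the study's methods, and a p under 0.05 was the looser limit. Levels of different probe sets were not compared, but the summed marker levels add unlogged values over probe sets, so that the brightest weigh most.

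Named genes were, per complex, up to 3 higher and 3 lower members with the smallest unadjusted p under 0.05, members with a called probe set, catalytic subunits, tissue isoforms of complex IV and their counterparts, Ndufa4 and Ndufa4l2, the brightest and dimmest members, the 5 genes whose probe sets differed most, and up to 3 genes per related list. The complex I assembly factors were all named after their values were seen, which added Ndufaf2, Ndufaf3, Ndufaf5 and Ndufaf7. Others, such as Ndufb4, Ndufs5, Ndufa5, Higd1a, Twnk, Polg, Tomm40, Tnnc2, Mb, Acta1 and ND5, were also named after their values were seen. Members and lists were chosen with earlier results of these data known. Promoters were searched on both strands in the RefSeq table. The alternatives were other normalizations, centring, filters, priors, weights, probe set choices, the replicate number as a block, a covariate for RNA quality and each array left out. The KO minus WT fit was tested on simulated data over 45037 probe sets, where limma found 90 of 100 shifts of 1.2 (log2) and 100 of 100 shifts of 2, with 41 false calls. The simulated probe sets varied independently, and both shifts exceed the largest change on a chosen probe set of the members, 0.72. The simulation thus does not cover changes of that size, genes that move together or RNA quality that differs by group. Precision is limited by having 3 arrays per group. Figures were drawn in matplotlib 3.10.9.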

Additional observations from a re-analysis of the deposited data

How the results depend on the processing

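As reported, 20 members were lower and 3 higher in KO at an unadjusted p under 0.05, 6 of the lower ones being assembly factors, and none was called. Leaving out 1 array at a time gave 7 (without WT3, 11.3% of all genes) to 32 (without WT1, 16.2%) lower and 1 to 2 higher (3.71% to 8.79%). The medians were -0.29 to -0.05, and 3 to 6 assembly factors were lower at that limit, with medians of -0.69 to -0.38. With the end difference as a covariate 1 member was lower (3.36% of all genes) and 2 higher (1.8%), and the median was 0.014. There 0 assembly factors passed (median -0.10), and 1 member was called, Ndufs5 at 1.29. There Atp5b was at -0.15, Cox8a at -0.081, Ndufaf4 at 0.041 and Ndufaf8 at 0.082. Centring on the ribosomal protein genes shifted the median of all genes to 0.10 and that of the members to -0.01, with 47 of 90 lower. At that limit 4 members were lower (4.9% of all genes) and 5 higher (14%), and 3 assembly factors were lower. With probe sets specific to 1 gene, which 72 members have, 12 were lower (11.9% of all genes) and 6 higher (6.87%). Of the assembly factors 3 were lower, and 1 member was called, Ndufa12 at 1.40. Atp5a1 was then at 0.43, Mff at 0.032 and Ndufaf8 at 0.20. With the replicate block 21 members were lower (12.8% of all genes) and 3 higher (6.39%). The deviations of same-numbered WT and KO arrays had correlations of -0.16, 0.16 and 0.10, and those of the other pairs ran from -0.26 to 0.20. They thus showed no pairing by number, but 3 arrays per group cannot exclude one. The other normalizations, filter, prior, weights and the mean of all probe sets gave 17 to 21 lower (10.9% to 15.5% of all genes) and 3 to 4 higher (5.75% to 8.23%).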
